A study of Mus musculus with 4 samples.

Results

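The Hox genes were followed through the promoter counts of a chromatin immunoprecipitation study of acetylated histone H3 in the mouse left ventricle. They were chosen by symbol, as every gene named Hoxa, Hoxb, Hoxc or Hoxd followed by a number, and all 39 were found among the 23631 genes of the count table. Cluster A has 11 members, cluster B has 10, cluster C has 9 and cluster D has 9. No measured value entered this choice. All 39 passed the minimum mean count of 10 that left 22835 genes for the comparisons, and each gene is represented by the RefSeq transcript with the highest mean count.

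Hox genes encode homeodomain transcription factors that give cells their position along the body axis. In the mouse they lie in 4 clusters, and copies at like places in different clusters form 13 paralogue groups. Genes at the low-numbered end are used first and furthest forward in the embryo, and genes at the high-numbered end later and further back, in the trunk, the limbs and the urogenital tract. Retinoic acid opens the low-numbered end, Trithorax proteins keep active members active, and Polycomb proteins keep the others silent. In the embryonic heart Hoxa3 and Hoxb1 are among the genes that mark cells of the second heart field that build the outflow tract and the atria. Acetylation of histone H3 is found at promoters in use, and histone deacetylases remove it.

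The mice were C57BL6 males of 10 to 12 weeks that underwent transverse aortic constriction (TAC), a narrowing of the aorta against which the ventricle must pump, or sham surgery. They then received trichostatin A (TSA), which inhibits histone deacetylases, or its solvent DMSO (vehicle, Veh), under the skin, 2 times a day for 4 weeks, at a labelled dose of 0.6 mg per kg per day. No genetic change is named for any group. The 4 groups TAC TSA, TAC Veh, Sham TSA and Sham Veh are 1 library each, and the labels do not say how many animals went into a library.

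The deposited promoter counts came to 6842296 in TAC TSA, 8873302 in TAC Veh, 9905553 in Sham TSA and 9612616 in Sham Veh. Levels below are in CPM, the count of a promoter for every 1000000 counts of its library, after TMM scaling (trimmed mean of M-values). The sham labels refer to an earlier deposit and the TAC labels do not, so surgery and membership of that earlier deposit cannot be told apart. The length of the counted promoter window is not given in the sources used here, so an order of levels between genes assumes that the windows are alike, which was not tested. Neighbouring Hox promoters lie close together and can share reads. With bulk tissue, fewer cells with an acetylated promoter and less acetylation per cell cannot be told apart. All 10 cardiomyocyte markers lay above the background level defined below in every library, as did 11 of 11 fibroblast and 9 of 10 endothelial markers. So did 8 of 8 smooth muscle and pericyte, 6 of 9 leukocyte, 5 of 5 epicardial and 3 of 4 neural crest markers. The share of all genes was 73.1%. No measured marker of these 7 cell types was at 0.

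The promoters of 4 Hox genes that the comparisons below return to are printed for the sequence they hold around the start, from 250 bases before to 50 bases after it (RefSeq, GRCm38.p6). Capitals mark TGATNNAT, the composite motif bound by Hox and Pbx proteins together, sought on both strands. The Hoxa2 promoter is at chr6:52164782-52165081 on the minus strand, the Hoxb1 promoter at chr11:96365508-96365807 on the plus strand, the Hoxc4 promoter at chr15:103034145-103034444 on the plus strand, and the Hoxd8 promoter at chr2:74704365-74704664 on the plus strand.
Hoxa2: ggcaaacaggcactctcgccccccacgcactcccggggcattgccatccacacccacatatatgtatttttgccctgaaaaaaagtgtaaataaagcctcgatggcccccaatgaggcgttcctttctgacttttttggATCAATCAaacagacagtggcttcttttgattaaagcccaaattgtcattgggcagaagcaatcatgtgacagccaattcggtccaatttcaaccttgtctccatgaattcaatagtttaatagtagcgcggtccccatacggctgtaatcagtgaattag
Hoxb1: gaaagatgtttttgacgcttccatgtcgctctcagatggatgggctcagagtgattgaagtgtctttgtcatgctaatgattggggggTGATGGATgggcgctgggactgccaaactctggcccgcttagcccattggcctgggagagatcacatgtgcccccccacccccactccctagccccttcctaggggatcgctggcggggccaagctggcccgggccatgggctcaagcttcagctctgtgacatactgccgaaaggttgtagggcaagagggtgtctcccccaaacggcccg
Hoxc4: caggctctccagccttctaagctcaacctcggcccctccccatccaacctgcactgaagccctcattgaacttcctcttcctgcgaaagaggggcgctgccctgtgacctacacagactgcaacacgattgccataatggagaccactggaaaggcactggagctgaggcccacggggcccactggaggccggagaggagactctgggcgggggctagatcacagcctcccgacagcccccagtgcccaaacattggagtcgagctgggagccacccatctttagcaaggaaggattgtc
Hoxd8: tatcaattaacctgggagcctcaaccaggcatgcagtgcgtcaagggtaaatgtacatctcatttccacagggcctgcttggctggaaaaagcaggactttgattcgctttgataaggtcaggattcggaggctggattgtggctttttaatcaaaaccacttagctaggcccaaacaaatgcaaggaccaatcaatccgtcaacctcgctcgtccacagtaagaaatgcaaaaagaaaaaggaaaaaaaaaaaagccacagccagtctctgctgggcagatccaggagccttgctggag
Hoxa2 and Hoxb1 hold 1 match each, and Hoxc4 and Hoxd8 hold none. Among 24 promoters of the 22 Hox genes with an entry, 16.7% held the motif, against 8.85% of all 32851 promoters of that length. CCAAT, on either strand, was in 62.5% of the Hox promoters and in 37.4% of all, TAATTA in 8.33% and 5.29%, and TATAAA in 16.7% and 13.6%. The median promoter held 14.5 CG dinucleotides among the Hox promoters and 7 among all. A match describes the letters in this window, which is not known to be the window counted.

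Hox promoters were less acetylated than most promoters in the ventricle. The median Hox level, over the mean of 4 libraries, was 15.4 CPM, against 36.3 CPM for the 22835 genes. Members ran between 7.70 CPM at Hoxc12 and 39.5 CPM at Hoxb2, which lie at percentiles 17.2 and 52 of all genes. By library the Hox median was 16.3 in TAC TSA, 15.7 in TAC Veh, 14.4 in Sham TSA and 14.9 in Sham Veh. A second family of developmental regulators, the numbered genes of the Pax, Sox, Lhx, Dlx, Irx and sine oculis-related families, had a median of 21.4 CPM over 54 genes.

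A low reference was taken from the olfactory and vomeronasal receptor genes, which detect odours and pheromones in the nose. Their median was 2.91 CPM over 1461 genes, or 3.11 CPM over the 1278 with the minimum mean count. The level that 2.5% of the 1461 exceeded, called the receptor limit here, was 12.9 CPM in TAC TSA, 10.8 in TAC Veh, 10.4 in Sham TSA and 9.96 in Sham Veh. Above that limit lay 29 of 39 Hox promoters in TAC TSA, 30 in TAC Veh, 30 in Sham TSA and 32 in Sham Veh. The shares of all genes above it were 75.3%, 76.5%, 75.8% and 77.2% in the same libraries, so the Hox counts were close to that background. In all 4 libraries at once, 25 Hox promoters (64.1%) passed, against 73.1% of all genes and 41 of those 54 regulators (75.9%). Hoxc10, Hoxc12, Hoxd4 and Hoxd13 passed in none.

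**Figure D1:**
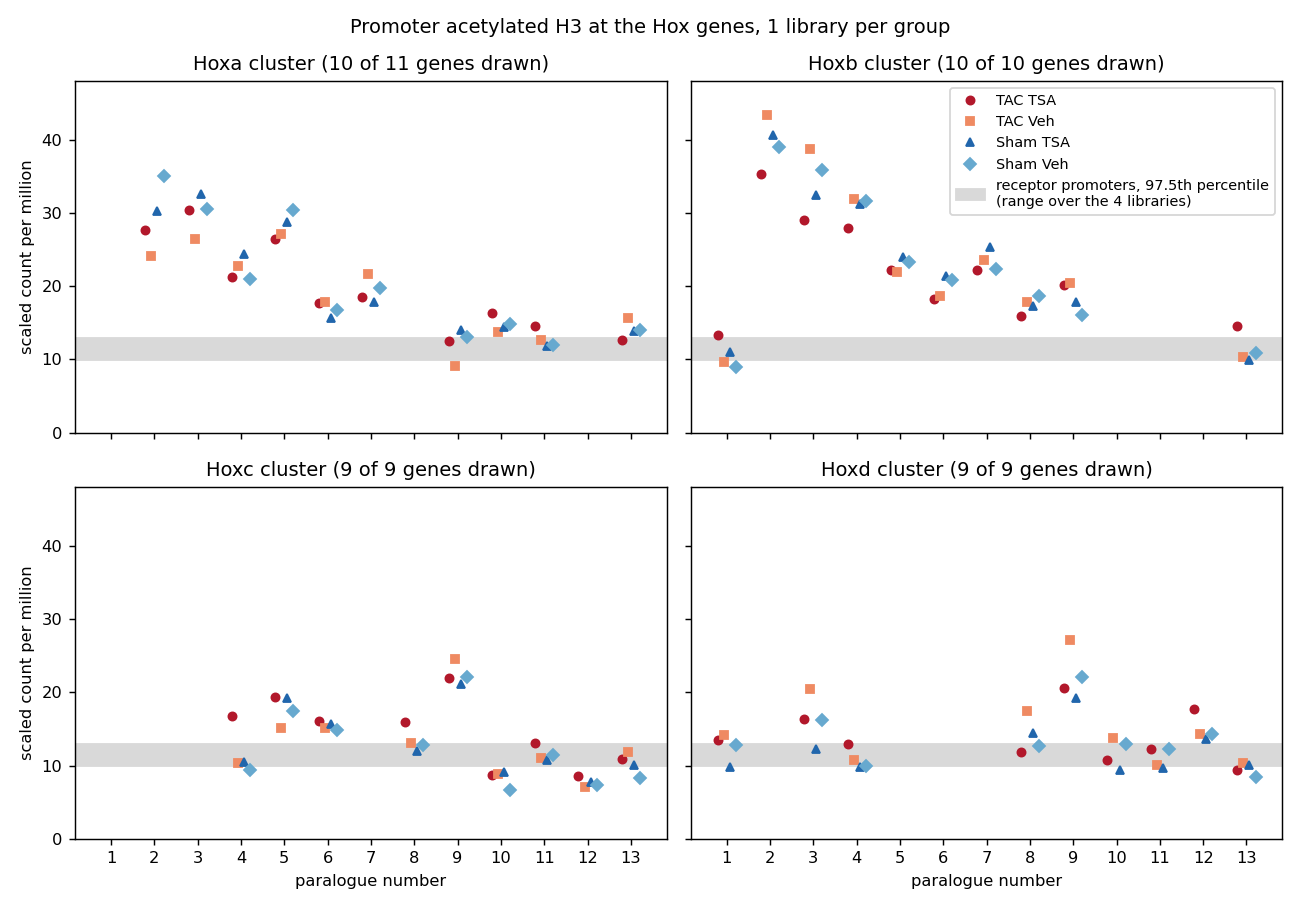
Level of each Hox promoter by paralogue number, in one panel per cluster, as TMM-scaled CPM on a linear axis, with 1 point per library and a grey band for the receptor limit over the 4 libraries; 1 Hoxa gene is not drawn. Low-numbered Hoxa and Hoxb promoters other than Hoxb1 sit highest, up to 43.3 CPM for Hoxb2 in TAC Veh. The Hoxc and Hoxd panels hold mostly levels under 20 CPM.

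Levels differed between clusters and along them. The median was 19.5 CPM in cluster A and 21.3 in cluster B, against 11.8 in cluster C and 12.6 in cluster D. The 8 anterior genes, of paralogue groups 1 to 3, had a median of 29.6 CPM, the 15 central genes, of groups 4 to 8, a median of 17.7, and the 16 posterior genes, of groups 9 to 13, a median of 11.9. This order held in each library, with anterior medians of 27.9 in TAC TSA, 25.2 in TAC Veh, 30.8 in Sham TSA and 32.8 in Sham Veh, and posterior medians of 12.9, 12.2, 11.3 and 12.6. The classes differ in cluster makeup, and no anterior gene is in cluster C. Anterior, central and posterior medians were 30, 20.9 and 13.4 CPM in cluster A and 34, 22.8 and 15 in cluster B. In cluster D they were 14.4, 12.5 and 11.7, a smaller fall. Cluster C had 14.4 for its central and 10.3 for its posterior genes. In all 4 libraries at once, 6 of 8 anterior, 12 of 15 central and 7 of 16 posterior promoters lay over the receptor limit. By cluster the same count was 9 of 11 in cluster A, 8 of 10 in cluster B, 5 of 9 in cluster C and 3 of 9 in cluster D.

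Level was most closely correlated with paralogue number in cluster A. The correlation across genes of mean CPM with paralogue number was r = -0.90 and rho = -0.91 over 11 Hoxa genes. It was r = -0.52 and rho = -0.41 over 10 Hoxb genes, and r = -0.45 and rho = -0.65 over 9 Hoxc genes. Over 9 Hoxd genes r was -0.10 and rho -0.32. Over all 39 genes r was -0.59 and rho -0.57. These describe genes of the same 4 libraries, in which neighbours can share reads, and are not a test.

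In cluster A, on chromosome 6, the anterior genes had the highest means over the 4 libraries. Hoxa2, which sets the identity of the second pharyngeal arch, had levels of 27.6 CPM in TAC TSA, 24.1 in TAC Veh, 30.2 in Sham TSA and 35.1 in Sham Veh. Hoxa3, needed for thymus and parathyroid, had 30.4, 26.4, 32.6 and 30.5 CPM in those libraries. These neighbours could not be ordered, since their 95% Poisson intervals in Sham Veh were 30.8 to 39.9 and 26.5 to 35.0 CPM. Hoxa9, a regulator of blood progenitors, had the lowest mean of the cluster, with 12.5, 9.12, 14 and 13.1 CPM. Hoxa11, used in the forearm and the uterus, had 14.5, 12.6, 11.8 and 12.0 CPM, below Hoxa9 in both sham libraries. The intervals of Hoxa9 (10.5 to 16.2) and Hoxa11 (9.49 to 14.9) in Sham Veh overlapped each other and lay below those of Hoxa2 and Hoxa3. Both TAC libraries were below both sham libraries at Hoxa2, Hoxa3 and Hoxa9, an order held by 22% of all genes. In TAC TSA and Sham Veh the values were 30.4 and 30.5 CPM at Hoxa3 and 12.5 and 13.1 CPM at Hoxa9, within counting error.

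In cluster B, on chromosome 11, Hoxb2, which acts in hindbrain segments, had the highest level of any member. Its values were 35.3 CPM in TAC TSA, 43.3 in TAC Veh, 40.6 in Sham TSA and 39 in Sham Veh. Hoxb3 had 29.0, 38.7, 32.5 and 35.9 CPM, and Hoxb4, which can expand blood stem cells, had 28.0, 31.9, 31.2 and 31.6 CPM. TAC TSA was the lowest library at all 3. Their Sham Veh intervals overlapped, at 34.4 to 43.9, 31.5 to 40.7 and 27.5 to 36.1 CPM. Hoxb1, next to Hoxb2 and known for hindbrain segments and the second heart field, broke the gradient, with 13.3, 9.60, 11 and 9 CPM. Hoxb13, the far end of the cluster and a prostate regulator, had 14.5, 10.4, 9.96 and 10.9 CPM. At both, TAC TSA was the highest library. The Sham Veh intervals of Hoxb1 (6.88 to 11.6) and Hoxb13 (8.57 to 13.7) overlapped and lay far below that of Hoxb2.

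In cluster C, on chromosome 15, Hoxc9, which patterns the thoracic spinal cord, led with 22.0 CPM in TAC TSA, 24.5 in TAC Veh, 21.1 in Sham TSA and 22.1 in Sham Veh. Hoxc5 had 19.3, 15.1, 19.2 and 17.4 CPM, and Hoxc6, of the forelimb and thoracic level, had 16.1, 15.1, 15.6 and 14.9 CPM. The library order differed from gene to gene. Hoxc12 had 8.54, 7.08, 7.79 and 7.38 CPM, and Hoxc10, of the lumbar level, had 8.73, 8.81, 9.09 and 6.64 CPM. Both stayed under the receptor limit of each library. In Sham Veh the intervals of Hoxc10 (4.84 to 8.88) and Hoxc12 (5.48 to 9.73) overlapped and lay below that of Hoxc9 (18.7 to 26).

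In cluster D, on chromosome 2, Hoxd9 was highest, with 20.6 CPM in TAC TSA, 27.2 in TAC Veh, 19.2 in Sham TSA and 22.1 in Sham Veh. Hoxd3, which shapes the first neck vertebrae, had 16.3, 20.5, 12.3 and 16.2 CPM. Hoxd12, a limb gene, had 17.7, 14.3, 13.6 and 14.3 CPM. TAC Veh was the highest library at Hoxd9 and Hoxd3, and TAC TSA at Hoxd12. Hoxd13, which patterns digits, had 9.33, 10.4, 10.1 and 8.41 CPM, and Hoxd4 had 12.9, 10.7, 9.82 and 9.89 CPM. Their Sham Veh intervals overlapped (6.37 to 10.9 and 7.66 to 12.6) and lay below that of Hoxd9 (18.7 to 26), but both met the interval of 10.1 to 15.7 at Hoxd8. The high levels of Hoxc9 and Hoxd9, both of paralogue group 9, were not matched by Hoxa9.

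**Figure D2:**
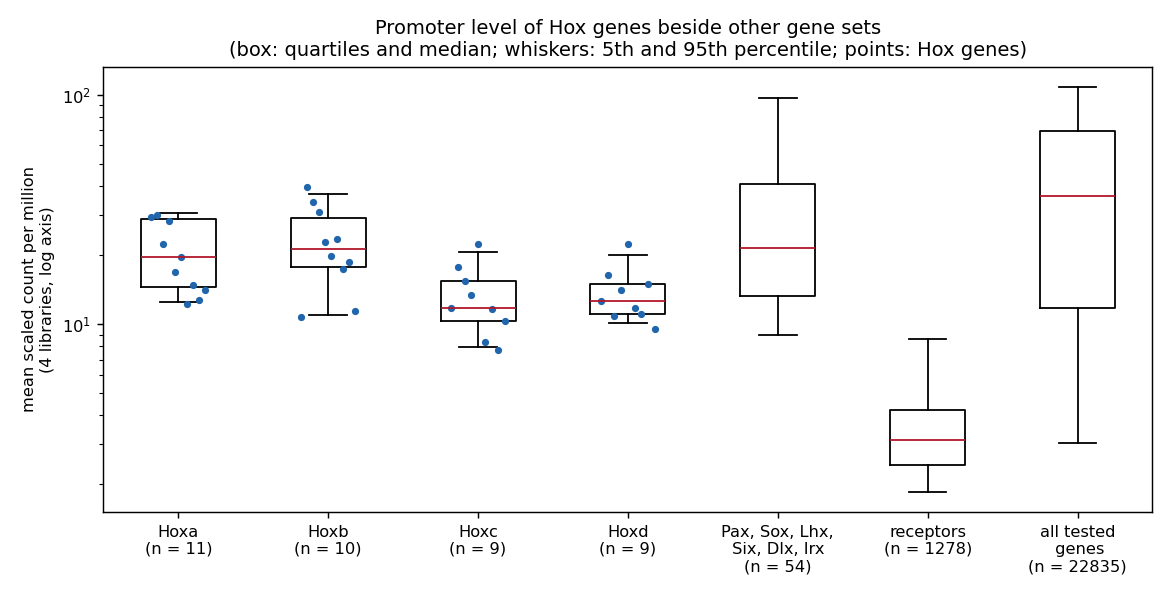
Mean promoter level over 4 libraries for each Hox cluster, the other developmental regulators, the receptor genes and all genes, as TMM-scaled CPM on a log axis, with boxes for the quartiles and median, whiskers for percentiles 5 and 95, and points for Hox genes, 1 of them not drawn. The Hox cluster medians, between 11.8 and 21.3, lie between the receptor median of 3.11 and the median of 36.3 for all genes.

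Clusters A and B held about the same share of all Hox counts. Cluster A held 32.2% (95% exact interval 30.7 to 33.8) in TAC TSA, 30.9% (29.6 to 32.3) in TAC Veh, 34.0% (32.7 to 35.4) in Sham TSA and 34.6% (33.2 to 35.9) in Sham Veh. Cluster B held 31.2% (29.7 to 32.8), 33.2% (31.8 to 34.6), 33.5% (32.1 to 34.8) and 32.4% (31.1 to 33.7) in those libraries. The next 2 clusters held less. Cluster C held 18.7% (17.4 to 20.0), 16.4% (15.3 to 17.5), 16.8% (15.8 to 17.9) and 15.7% (14.7 to 16.8). Cluster D held 17.9% (16.6 to 19.2), 19.4% (18.3 to 20.6), 15.7% (14.7 to 16.7) and 17.3% (16.3 to 18.4). The cluster A share in TAC Veh lay below those of both sham libraries without overlap of the intervals, and the cluster C share in TAC TSA lay above that of Sham Veh. The cluster D share in TAC Veh lay above that of Sham TSA. These shares stay the same when all promoters of a library are scaled by a common factor, as with TMM. Scaling that follows the level of the promoter can change them, and the shares were not recomputed with it. Intervals here and below cover counting error only, and reads copied by PCR are not independent molecules. Where neighbouring promoters share reads, a read can be counted again within a sum or share, and the interval is then too narrow.

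The 4 pairwise comparisons ask what pressure load and TSA did to acetylation at these promoters. With 1 library per group they have no test. A promoter was called apart where its TMM-scaled ratio was at least 1.5-fold and its exact 95% counting interval left out 1.

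TAC Veh over Sham Veh set the library of loaded hearts against that of sham hearts, both without the inhibitor. No Hox promoter was apart, 0 of 39 higher and 0 of 39 lower, where 1.93% of all genes were apart and higher and 0.582% apart and lower. The 39 promoters together held 4526 counts in TAC Veh and 4762 in Sham Veh, a scaled log2 ratio of 0.02 (-0.04 to 0.08). The interval left out 1 at 1 Hox promoter that was higher and 2 that were lower, against 5.82% and 7.2% of all genes. Hoxa2 was lower, with 153 counts in TAC Veh and 238 in Sham Veh, a log2 ratio of -0.54 (-0.85 to -0.25). Hoxa9 had 58 and 89 counts and a log2 ratio of -0.53 (-1.03 to -0.03), and passed 1.5-fold, at -0.59, once the scaling followed the level of the promoter (loess). Hoxd8 was higher, with 111 and 86 counts and a log2 ratio of 0.46 (0.04 to 0.88).

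By cluster, the summed log2 ratio of TAC Veh over Sham Veh was -0.14 (-0.24 to -0.04) in cluster A, 0.06 (-0.05 to 0.16) in cluster B, 0.08 (-0.07 to 0.23) in cluster C and 0.19 (0.05 to 0.32) in cluster D. Receptor scaling moves every promoter of a comparison by 1 amount, here from about 0 to -0.24 for the median of all genes, and leaves the differences between clusters as they are. On that scale the 4 clusters were at -0.39, -0.19, -0.16 and -0.06. Loess scaling, which follows promoter level, can change the differences between clusters. With it the cluster medians were -0.15, 0.02, -0.01 and 0.10, against -0.12, 0.04, 0.02 and 0.14 with TMM. Hoxa3, beside Hoxa2, had 168 counts in TAC Veh and 207 in Sham Veh, a log2 ratio of -0.21 (-0.51 to 0.09). The anterior Hoxb genes had a summed log2 ratio of 0.13 (-0.04 to 0.30), or -0.12 with receptor scaling. Cardiomyocyte markers were also lower there: 6 of 10 were apart and lower, and their summed level was 410 CPM in TAC Veh and 610 in Sham Veh. The fibroblast sum was 418 and 336 CPM in the same libraries. The part of either in the Hox values was not tested.

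TAC TSA over TAC Veh set the library with the inhibitor against that without it, both under load. Of 39 Hox promoters, 1 was apart and higher and 0 were apart and lower, against 4.06% and 0.342% of all genes, where 1 of 39 is a share below that background. The promoter was Hoxc4, of the cervical level and the first of its cluster. It had 84 counts in TAC TSA, 66 in TAC Veh, 73 in Sham TSA and 64 in Sham Veh, or 16.7, 10.4, 10.5 and 9.44 CPM. TAC TSA stood above the other 3 libraries, which lay close together. The receptor limit was 12.9 CPM in TAC TSA, 10.8 in TAC Veh, 10.4 in Sham TSA and 9.96 in Sham Veh. Hoxc4 was thus under the limit in both vehicle libraries and barely above it in Sham TSA. The log2 ratio was 0.68 (0.20 to 1.17), which is 1.61-fold. It was 0.51 with loess scaling and 0.30 when libraries were scaled to the receptor genes, and was then not apart.

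Promoters with an interval that left out 1 included 4 that were lower in TAC TSA, against 10.4% of all genes, and Hoxc4 as the 1 that was higher, against 8.13%. Hoxb3 had 146 counts in TAC TSA and 246 in TAC Veh, a log2 ratio of -0.42 (-0.72 to -0.12). Hoxd9 had 104 and 173 counts and a log2 ratio of -0.40 (-0.76 to -0.04), and Hoxb2 had 178 and 275 counts and a log2 ratio of -0.29 (-0.57 to -0.01). All 3 are among the highest promoters of their clusters. Hoxd8 had 60 counts in TAC TSA and 111 in TAC Veh, a log2 ratio of -0.55 (-1.03 to -0.09), which passed 1.5-fold under loess scaling, at -0.71. By cluster the summed log2 ratio was 0.04 (-0.08 to 0.15) in cluster A, -0.11 (-0.23 to 0.00) in cluster B, 0.17 (0.01 to 0.32) in cluster C and -0.14 (-0.29 to 0.00) in cluster D, and with receptor scaling, which sets the median of all genes at -0.38, it was -0.35, -0.50, -0.22 and -0.53. Among the central Hoxc genes it was 0.34 (0.12 to 0.56), or -0.04 with receptor scaling, and among the anterior Hoxb genes -0.24 (-0.43 to -0.05), or -0.62. Receptor genes, whose promoters lie at the lowest levels, had a median log2 ratio of 0.38 over TAC Veh, and 9 of 10 cardiomyocyte markers were apart and higher. The part of either in the Hoxc values was not tested. With loess scaling the medians of clusters A to D were -0.08, -0.16, 0.00 and -0.37, against -0.01, -0.06, 0.24 and -0.15 with TMM. The central Hoxc median was 0.16 with loess and 0.31 with TMM.

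TAC TSA over Sham TSA set the loaded library against the sham one, both with the inhibitor. Hoxc4 was again the 1 Hox promoter apart and higher, where 7.2% of all genes were, and 0 were apart and lower, where 0.206% were. Its log2 ratio was 0.66 (0.19 to 1.13), or 1.58-fold, and 0.42 with loess and 0.07 with receptor scaling. The TAC TSA library serves in both comparisons that single out Hoxc4. The interval left out 1 at Hoxc4 and Hoxb13, both higher, and at 0 lower promoters, against 10.3% and 13.8% of all genes. Hoxb13 had 73 counts in TAC TSA and 69 in Sham TSA, a log2 ratio of 0.54 (0.05 to 1.04), or -0.06 with receptor scaling. The summed log2 ratio was 0.18 (0.02 to 0.33) in cluster C and 0.21 (0.06 to 0.37) in cluster D, against -0.06 (-0.17 to 0.05) in cluster A and -0.08 (-0.19 to 0.03) in cluster B, and was -0.42, -0.39, -0.65 and -0.68 in that order with receptor scaling, where the median of all genes was -0.60. Leukocyte markers had a lower summed level here, 197 CPM in TAC TSA and 258 in Sham TSA, with a median log2 ratio of -0.38 and 2 of 9 apart and lower. The cardiomyocyte sum was 701 and 713 CPM and the fibroblast sum 352 and 354 CPM. The part of any of these in the cluster values was not tested. The receptor genes had a median log2 ratio of 0.61 in this comparison, above that of every cluster. With loess scaling the medians of clusters A to D were -0.15, -0.17, -0.13 and 0.04, against -0.12, -0.14, 0.11 and 0.34 with TMM. Cluster C was then near A and B.

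Sham TSA over Sham Veh set the library with the inhibitor against that without it, both without load. No Hox promoter was apart, where 0.582% of all genes were apart and higher and 0.582% apart and lower, and no Hox interval left out 1, where 5.2% of all genes had one above 1 and 3.81% one below. The summed log2 ratio over the 39 promoters was -0.02 (-0.08 to 0.03). Cluster D was the one Hox cluster whose interval left out 0, at -0.17 (-0.31 to -0.02). The sum over the 54 other developmental regulators also left out 0 here, at -0.05 (-0.08 to -0.01). It did so at -0.09 (-0.12 to -0.05) in TAC Veh over Sham Veh and 0.09 (0.05 to 0.13) in TAC TSA over TAC Veh. In TAC TSA over Sham TSA that sum was 0.05 (0.01 to 0.09). An interval without 0 is thus not particular to a Hox cluster. Hoxd10, a limb and lumbar gene, had 65 counts in Sham TSA and 88 in Sham Veh, a log2 ratio of -0.47 (-0.95 to 0.01), and Hoxd3 had 85 and 110 counts and a log2 ratio of -0.40 (-0.83 to 0.02).

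**Figure D3:**
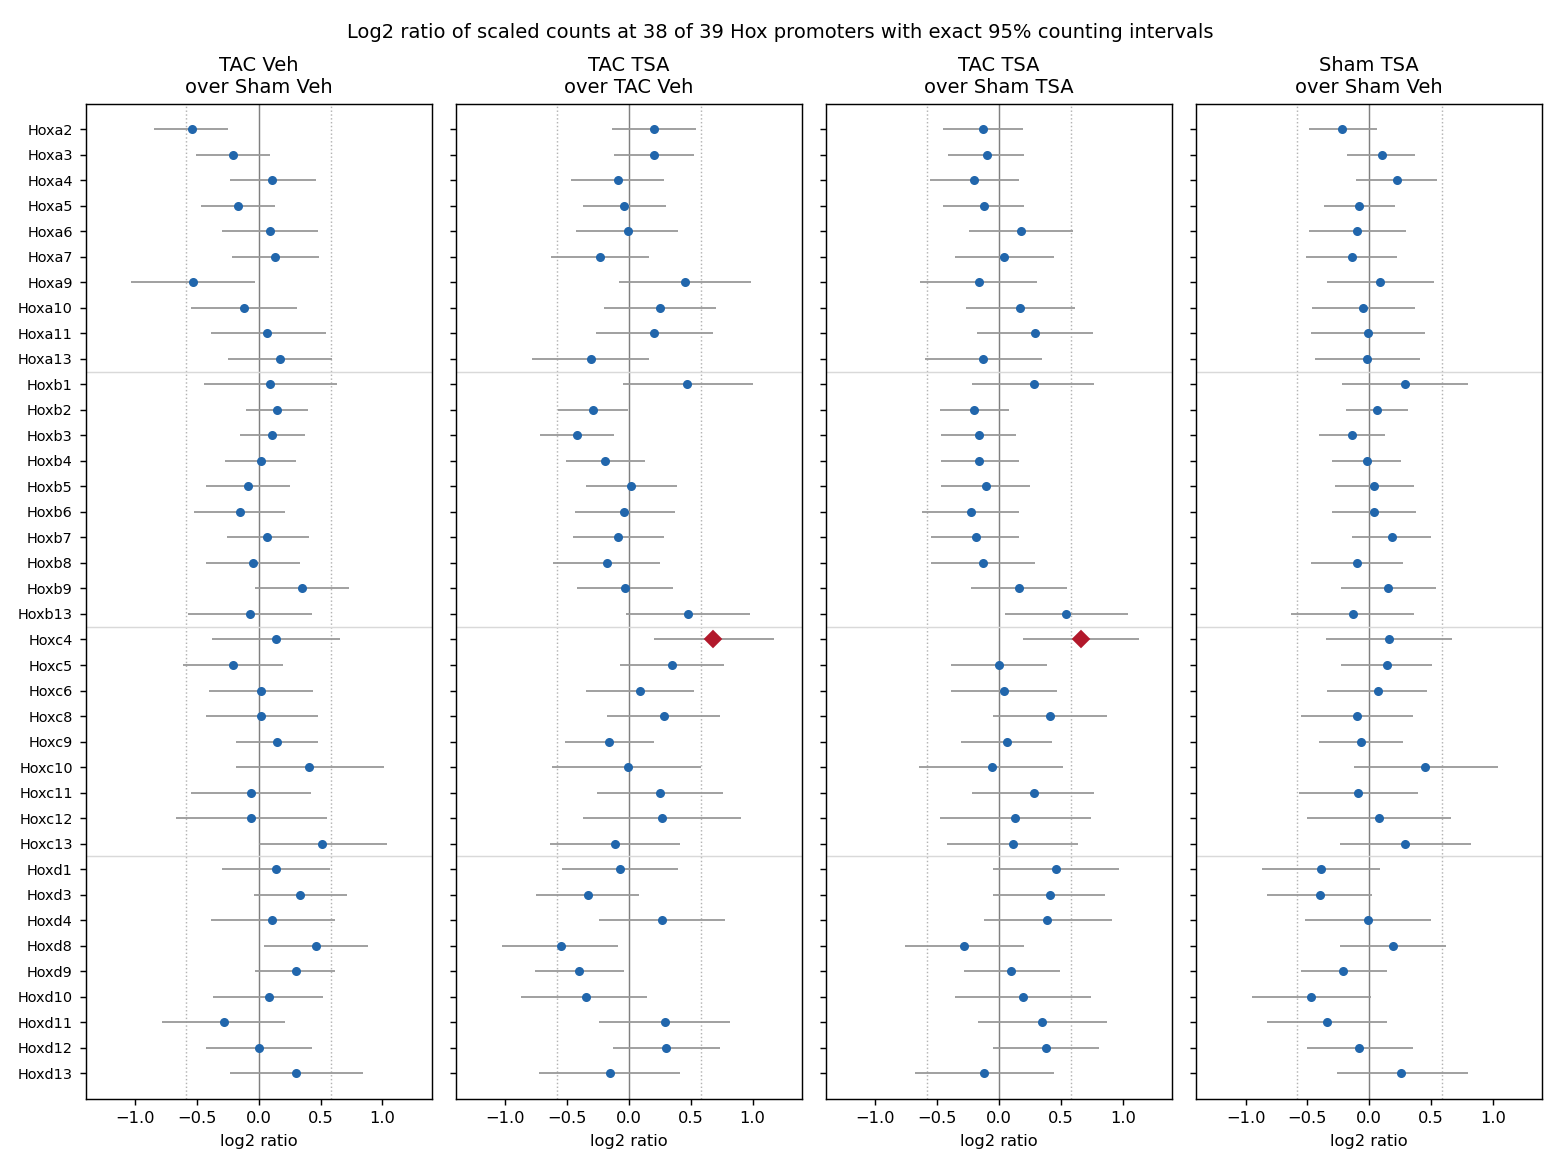
Log2 ratio of TMM-scaled counts for the Hox promoters, 1 of them not drawn, in the 4 comparisons, with exact 95% counting intervals and dotted lines at 1.5-fold. Hoxc4 is the promoter called apart, at 0.68 in TAC TSA over TAC Veh and 0.66 in TAC TSA over Sham TSA.

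The choice of scaling moved the Hox values in the 3 comparisons that include a TAC library, along with those of all genes. Scaled to the sum over receptor genes, the median log2 ratio of all genes was -0.24 for TAC Veh against Sham Veh, -0.38 for TAC TSA against TAC Veh, -0.60 for TAC TSA against Sham TSA and -0.02 for Sham TSA against Sham Veh. The Hox medians on that scale were -0.17, -0.41, -0.54 and -0.05 in the same comparisons, close to those of all genes. With TMM the Hox medians were 0.07, -0.03, 0.04 and -0.02. Receptor promoters held 0.680% of counts in TAC TSA, 0.507% in TAC Veh, 0.428% in Sham TSA and 0.422% in Sham Veh. Hox promoters held 0.0721%, 0.0714%, 0.0677% and 0.0694%, a narrower range.

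**Figure D4:**
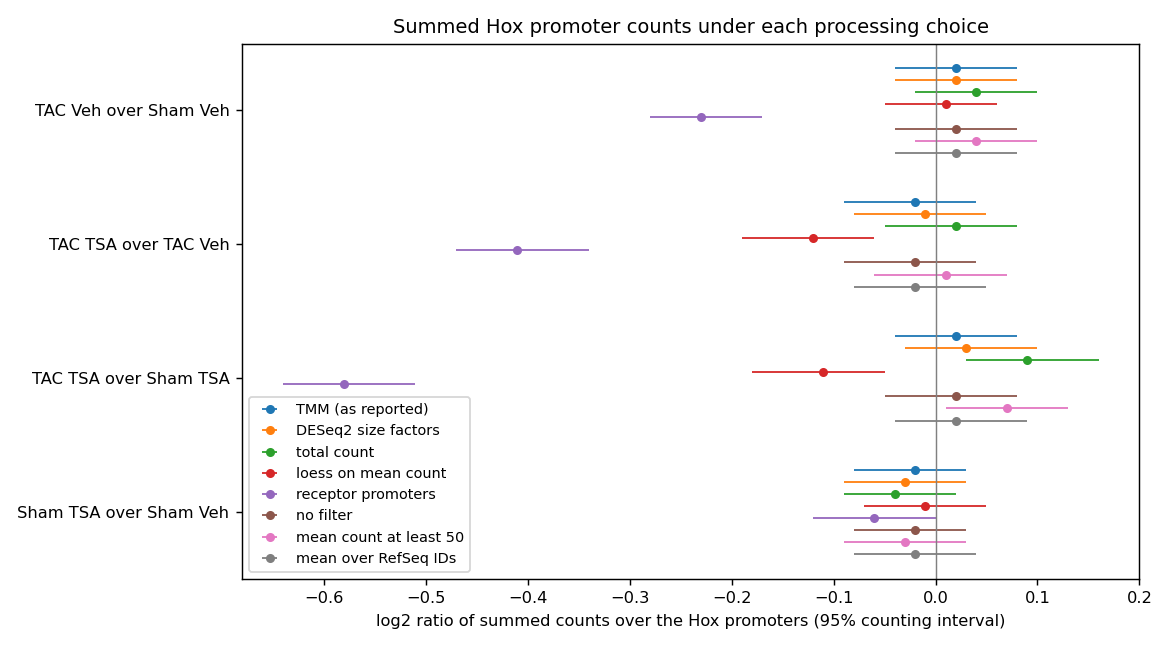
Log2 ratio of the counts summed over the 39 Hox promoters in each comparison, under TMM and 7 other processing choices, with 95% counting intervals. With receptor scaling TAC TSA over Sham TSA is at -0.58, while with TMM it is at 0.02.

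Across all 4 libraries, both TAC values were below both sham values at 7 of 39 Hox promoters (17.9%, against 22% of all genes) and above them at 9 (23.1%, against 20.8%). The 7 included Hoxa2, Hoxa3, Hoxa5, Hoxa9, Hoxb5 and Hoxb6, and all 7 were from clusters A and B. The 9 were Hoxa6, Hoxa11, Hoxb9, Hoxc8, Hoxc13, Hoxd1, Hoxd3, Hoxd4 and Hoxd12. Both TSA values were below both vehicle values at 8 promoters (20.5%, against 14.1% of all genes), which were Hoxa7, Hoxa13, Hoxb3, Hoxb4, Hoxb8, Hoxc9, Hoxd9 and Hoxd10. They were above at 5 (12.8%, against 13.5%), which were Hoxb1, Hoxc4, Hoxc5, Hoxc6 and Hoxc12. The counts are from TMM-scaled levels, and were not tested.

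The one test across the libraries was an additive fit of surgery and drug, whose single residual degree of freedom is the interaction of both (edgeR quasi-likelihood, Benjamini-Hochberg over 22835 genes). It called 0 Hox promoters for TAC over sham, where 0.0131% of all genes were called and higher and 0.0219% called and lower. For TSA over vehicle it also called 0, where 0.206% were called and higher and 0.00876% called and lower. The smallest adjusted p for surgery was 0.459 in the edgeR fit, at Hoxa2, with a log2 change of -0.34 and an unadjusted p of 0.0238. Hoxa2 was the 1 Hox promoter with an unadjusted p under 0.05 for surgery, where 9.32% of all genes were, and no Hox promoter was under it for the drug, where 4.27% of all genes were. The limma-voom fit called 8 genes for surgery and 39 for the drug, with no Hox promoter among them. It had 1 Hox promoter under an unadjusted 0.05 for surgery and 0 for the drug, where 9.39% and 4.19% of all genes were. DESeq2 called 0 of all 22835 genes for either term and had 0.206% and 0.267% of them under an unadjusted 0.05, none a Hox promoter, so its 0 Hox calls say nothing about Hox genes.

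Where the 2 surgery comparisons, which share no library, were set side by side, 24 of 39 Hox promoters had the same sign, 16 above and 8 below 0. Across these genes the log2 ratios of both pairs had r = 0.13 and rho = 0.10, against r = 0.28 and rho = 0.19 over all genes. For the drug, 21 of 39 had the same sign, with r = 0.19 and rho = 0.19, against r = -0.00 and rho = -0.03 over all genes. These correlations are across genes of 1 library per group. Hoxd8 was the 1 promoter whose 2 surgery ratios were further apart than counting error. Its log2 ratio was -0.28 between the TSA libraries and 0.46 between the vehicle libraries, a difference of -0.74 (-1.35 to -0.12), and 7.08% of all genes had an interval above 0 and 9.14% one below 0.

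The clusters also carry microRNAs and long non-coding RNAs, of which 10 were measured, with a median of 12.8 CPM. In TAC Veh over Sham Veh 1 of the 10 was apart and higher and 1 apart and lower, where 1.93% and 0.582% of all genes were, and in TAC TSA over Sham TSA 1 was apart and higher, where 7.2% were. The mature miRNAs of the measured miR-10 and miR-196 genes fall into 2 seed families, printed from RefSeq (GRCm38.p6) because miR-196 is known to repress Hox transcripts. Capitals mark the seed, bases 2 to 8 from the 5' end.
mmu-miR-10a-5p: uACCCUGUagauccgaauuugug
mmu-miR-10b-5p: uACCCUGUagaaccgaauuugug
mmu-miR-196a-5p: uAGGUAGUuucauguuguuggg
mmu-miR-196b-5p: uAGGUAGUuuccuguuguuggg
Counted from the 5' end, miR-10b differs from miR-10a by U12A and miR-196b from miR-196a by A12C, both outside the seed.

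Mir10a, in cluster B, had the higher level of its family, with 30.8 CPM in TAC TSA, 36.3 in TAC Veh, 34.5 in Sham TSA and 36.7 in Sham Veh. Mir10b, in cluster D, had 13.7, 12.7, 13.7 and 12.5 CPM. In Sham Veh Hoxb4, beside Mir10a, had 31.6 CPM and Hoxd4, beside Mir10b, 9.89 CPM, and such neighbours can share reads. Mir196b, between Hoxa9 and Hoxa10, was apart and lower in TAC Veh over Sham Veh. It had 48 counts in TAC Veh and 79 in Sham Veh, a log2 ratio of -0.63 (-1.18 to -0.09). With loess scaling Mir196b stayed apart, at -0.71. Receptor scaling lowers every promoter in this comparison, so it cannot undo a lower call and weakens every higher one. Mir196b lay under the receptor limit in TAC Veh, at 7.55 CPM, and above it in Sham Veh, at 11.7 CPM. Its neighbour Hoxa9 was lower in the same pair. Mir196a-2, between Hoxc10 and Hoxc9, was apart and higher there, with 79 and 54 counts and a log2 ratio of 0.64 (0.12 to 1.17), but at 0.57 with loess and 0.40 with receptor scaling it was not apart. Mir196a-2 had 12.4 CPM in TAC Veh and, under the receptor limit, 7.97 CPM in Sham Veh. Mir196a-1, between Hoxb13 and Hoxb9, was not apart in any comparison, so the 3 genes of this seed family did not share a direction. Hotair, between Hoxc12 and Hoxc11, encodes a long non-coding RNA reported in human cells to silence HOXD genes. It was apart and higher in TAC TSA over Sham TSA, with 51 counts in TAC TSA and 33 in Sham TSA, a log2 ratio of 1.09 (0.43 to 1.77), or 0.66 with loess scaling and 0.49, no longer apart, with receptor scaling. The gene had 51 counts in TAC Veh and 35 in Sham Veh, a log2 ratio of 0.64 (-0.01 to 1.30), which was not apart. Hotair lay under the receptor limit of each library, at 10.1 CPM in TAC TSA, 8.02 in TAC Veh, 4.76 in Sham TSA and 5.16 in Sham Veh.

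The genes that act with or upon the clusters had higher promoter levels than the clusters themselves. The 9 cofactor genes of the Meis, Pbx and Pknox families, whose proteins bind DNA beside Hox proteins, had a median of 72.8 CPM. Meis1 averaged 135 CPM and Pbx3 75 CPM. The 27 Polycomb genes had a median of 71.1 CPM, with Ezh2, the H3K27 methyltransferase, at 71.1 and Pcgf5 at 10.4 CPM. The 12 Trithorax and H3K27 demethylase genes had a median of 81.3 CPM, among them Kdm6b, which removes the Polycomb mark, at 73.9 CPM. None of these 48 promoters was apart in any of the 4 comparisons, where the share of all genes apart and higher reached 7.2% (TAC TSA over Sham TSA) and that apart and lower 0.582%.

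Of 18 retinoic acid genes, with a median of 28.3 CPM, 1 was apart and lower and 1 apart and higher in TAC TSA over TAC Veh, where 0.342% and 4.06% of all genes were. Aldh1a1, an enzyme that makes retinoic acid, had 68 counts in TAC TSA and 130 in TAC Veh, a log2 ratio of -0.60 (-1.04 to -0.17). Cyp26c1, an enzyme that breaks it down, had 108 and 90 counts and a log2 ratio of 0.60 (0.18 to 1.02), and 0.59 (0.18 to 0.99) in TAC TSA over Sham TSA. Cyp26c1 was apart under neither of the other scalings, at 0.47 and 0.42 with loess and 0.21 and -0.01 with receptor scaling. Aldh1a1 stayed apart in TAC TSA over TAC Veh with loess, at -0.74. Its -0.98 with receptor scaling is no check. That scaling lowers every promoter in this comparison, so it cannot undo a lower call and weakens every higher one. With it 14.4% of all genes were apart and lower. In the other 2 comparisons 0 of 18 were apart. Of 11 homeobox genes next to or related to the clusters, with a median of 12.5 CPM, 2 were apart and higher in TAC TSA over TAC Veh, where 4.06% of all genes were. Evx2, which adjoins Hoxd13, had 70 counts in TAC TSA and 56 in TAC Veh, a log2 ratio of 0.66 (0.13 to 1.19). Cdx4, a regulator of posterior Hox genes, had 30 and 20 counts, a log2 ratio of 0.92 (0.06 to 1.81), at a level under the receptor limit in both libraries. With loess scaling they were at 0.45 and 0.58 and with receptor scaling at 0.27 and 0.54, and neither was apart. The receptor genes had higher values in the same comparison, and their part in these values was not tested.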

How the data were processed

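The authors deposited unnormalised promoter read counts by RefSeq ID, whole numbers, for 1 library in each of 4 groups. Per the submitters' processing notes, the tools were BWA 0.5.9 and MACS 1.4.1 and the build mm9. The sources used here give no promoter window, duplicate handling or input subtraction. Of 31594 RefSeq IDs, 31115 (98.5%) matched a symbol (GRCm38.p6, names and printed sequences only). The unmatched held 1.11% of counts and were left out. The transcript with the highest mean count stood for each gene, and a mean of 10 counts over the libraries was required. Lists of differing regions were not used here.

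Libraries were scaled by TMM in edgeR 4.0.16 (R 4.3.3). Ratios have exact conditional binomial 95% intervals; list medians use a pseudocount of 2. Levels have exact Poisson intervals. The additive fit used edgeR quasi-likelihood, with DESeq2 1.42.0 and limma 3.58.1 as alternatives and an adjusted p of 0.05 as threshold. Scripts were tested on simulated data. The Hox genes named are the 3 highest and 2 lowest of each cluster, any apart or called, and others chosen after their values were seen; 1 Hoxa gene that the rule names is not reported here. Members and lists were chosen with earlier results of these data known.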

Additional observations from a re-analysis of the deposited data

How the results depend on the processing

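Of 140 recomputed values, 116 kept their call or stayed within the stated spread, 24 moved and 0 called values changed sign. All of those for Sham TSA over Sham Veh and for the additive fit stayed. The 25 Hox promoters above the receptor limit were 36 against the 95th and 17 against the 99th percentile of receptors. Both were scored as kept, being within 1.5 times of 25, but the count depended on the percentile chosen. The shares of all genes at these other percentiles are not given here. With loess scaling, 1 Hox promoter was apart and lower in TAC Veh over Sham Veh, and in TAC TSA over TAC Veh 0 were higher and 1 lower, with a summed log2 ratio of -0.12 and a median of -0.13. Loess left 0 higher in TAC TSA over Sham TSA, with a sum of -0.11 and a median of -0.14. With receptor scaling, which moves every promoter of a comparison by 1 amount, 2 were apart and lower in TAC Veh over Sham Veh (sum -0.23, median -0.17), 0 higher and 8 lower in TAC TSA over TAC Veh (sum -0.41, median -0.41), and 0 higher and 18 lower in TAC TSA over Sham TSA (sum -0.58, median -0.54). The shares of all genes apart and lower were then 3.89%, 14.4% and 52.6%, so these Hox counts are no Hox result. Uncalled medians near 0 also changed sign, to 0.01 with total-count scaling in TAC TSA over TAC Veh and to 0.01 with loess in Sham TSA over Sham Veh. Total-count scaling gave 2 higher in TAC TSA over Sham TSA and a sum of 0.09, and a mean count of at least 50 also gave 2 higher. A 2-fold minimum left 0 higher in both comparisons. The cause of these differences was not tested, and no scaling can be preferred from the deposited counts.

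No paired analysis was possible because the labels give no replicate numbers and each group is 1 library. Leaving out a library was not possible for the same reason, and the intervals hold no variation between animals. The median gene had 169 counts in TAC TSA and 231 in Sham Veh, and Hoxc12 had 43 and 50, and at such counts a 1.5-fold difference is near the limit of counting error.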
